A study of Homo sapiens with 12 samples.

Results

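Amino acid transporters of the plasma membrane set which amino acids a cell can take up, exchange and keep. The genes described here are 10 such transporters or subunits, *SLC7A11*, *SLC7A5*, *SLC3A2*, *SLC7A1*, *SLC38A1*, *SLC38A2*, *SLC1A4*, *SLC1A5*, *SLC6A9* and *SLC43A1*, taken by name and Ensembl identifier from 79317 genes listed in either of the deposited count tables. All 10 were listed in both tables and all 10 passed the filter on low counts in each line. RNA-seq of poly-A libraries compared cells given PTDSS1i, the small-molecule PTDSS1 inhibitor DS55980254, at 100 nM with cells given the vehicle DMSO, each for 48 h. PTDSS1 is phosphatidylserine synthase 1, an enzyme of the endoplasmic reticulum that makes the membrane lipid phosphatidylserine. The 4 groups were KYSE30 with DMSO, KYSE30 with PTDSS1i, U138MG with DMSO and U138MG with PTDSS1i, with 3 cultures each and 12 libraries in all, and every group is labelled wild type. KYSE30 is a line of esophageal squamous cell carcinoma (ESCC) and U138MG is labelled glioblastoma (GBM). Each line is a single cell line, and nothing in the labels says how the replicate cultures were set apart in time, so the p-values measure the spread between these cultures only.

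Transport of amino acids by these proteins follows a few patterns. The light chains SLC7A11 (xCT) and SLC7A5 (LAT1) each pair through a disulfide bond with the heavy chain SLC3A2 (4F2hc, CD98), which brings them to the cell surface. SLC7A11 imports cystine in exchange for glutamate and so feeds glutathione synthesis, and SLC7A5 imports leucine and other large neutral amino acids in exchange for intracellular amino acids such as glutamine. SLC38A1, SLC38A2 and SLC1A5 carry glutamine and other neutral amino acids and can supply that exchange, and imported leucine and arginine are read by the sensors upstream of mTORC1. Many of these genes are known targets of ATF4, the transcription factor of the integrated stress response, which is made when the eIF2alpha kinases are active.

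Library totals lay between 18800932 and 26514658 counts, and in the smallest library 3 counts correspond to 0.160 CPM (counts scaled to an equal library size). The labels place KYSE30 in one batch and U138MG in another, so line and batch cannot be told apart. They also give the medium of KYSE30 for the U138MG cultures, whereas the study's methods give DMEM for U138MG, and media differ in their amino acids. The part of the medium in any difference between the lines was not tested. The libraries labelled U138MG carried few of the markers of their label. Of 10 glioblastoma and astroglial markers, 4 were above 1 CPM in DMSO and 6 in PTDSS1i, their summed level ran from 55.7 to 57.3 CPM in DMSO and from 23.5 to 24.9 CPM in PTDSS1i, and *S100B*, *OLIG2* and *FABP7* were at 3 counts or fewer in every library. Mean levels in DMSO and PTDSS1i were 38.9 and 4.29 CPM for *SOX2*, 11.9 and 11.6 for *CDH2*, and 0.21 and 0.37 for *VIM*. In the same libraries the summed level of 10 squamous markers ran from 8020 to 8867 CPM in DMSO and from 3341 to 3507 CPM in PTDSS1i, with 8 and 9 markers above 1 CPM. In KYSE30 the squamous sum ran from 1614 to 1691 CPM in DMSO and from 2506 to 2571 CPM in PTDSS1i, again with 8 markers above 1 CPM, and the glial sum from 107 to 114 and from 118 to 124 CPM, with 3 above 1 CPM in each and mostly *SOX2*. The squamous sum therefore moved with treatment in opposite directions in the sets of libraries, but single markers did not all do so. Of 9 squamous markers tested in each set, edgeR gave an adjusted p under 0.05 to 7 as higher and 1 as lower in KYSE30. In the libraries labelled U138MG 4 were higher and 5 lower in that test. The largest falls there were of *KRT15*, from 4861 to 458 CPM, and *KRT5*, from 1470 to 526 CPM. *SFN* rose there from 282 to 1064 CPM. In KYSE30 *KRT5* was at 3 counts or fewer in every library. The part of these markers in the results was not tested. The second set is called the libraries labelled U138MG throughout. The mRNA of the drug's target, *PTDSS1*, had a log2 fold change of -0.05 in KYSE30 (edgeR adjusted p = 0.494) and of -0.38 in the libraries labelled U138MG (edgeR adjusted p = 1.06e-08), and an inhibitor of the enzyme need not change it.

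Short stretches of sequence are shown first, as background on several of these genes. ATF4 binds with C/EBP partners at elements whose core reads TGATGNAA, where N is any base. The search covered both strands (TTNCATCA on the other) of RefSeq windows on GRCh38.p14 that run from 250 bases before to 50 bases after an annotated gene start. Of the 10 genes, 9 matched the table by symbol, with 16 windows in all since some genes have several starts. *SLC7A11* has no entry. In 5 windows, each of a different gene, the letters occurred once, against 3.62% of 35116 windows in the whole table. Each line below gives 30 bases around the match on the strand that reads TGATGNAA, with the matching letters in capitals.
SLC3A2, chr11:62881719-62881748, minus strand: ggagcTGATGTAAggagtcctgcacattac
SLC7A1, chr13:29595663-29595692, minus strand: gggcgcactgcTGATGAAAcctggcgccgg
SLC38A1, chr12:46266502-46266531, minus strand: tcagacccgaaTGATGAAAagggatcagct
SLC1A4, chr2:64989381-64989410, minus strand: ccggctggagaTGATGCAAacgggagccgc
SLC1A5, chr19:46784893-46784922, minus strand: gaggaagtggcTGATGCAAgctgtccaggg

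In *SLC7A1*, *SLC38A1* and *SLC1A5* the printed strand is the gene's own, and in *SLC3A2* and *SLC1A4* it is the opposite one. Counted along each gene's strand from the start of its window, the match begins 97 bases before the start in *SLC1A5*, 7 before it in *SLC1A4*, 4 before it in *SLC38A1*, and at base 8 of *SLC7A1* and base 38 of *SLC3A2*. In the GENCODE v29 annotation, no coding sequence of these genes covers any of the 5 stretches. Of the *SLC7A1* stretch, 26 of the 30 bases lie in an exon of 1 transcript and the rest lie upstream of the annotated gene, the *SLC38A1* stretch lies within introns of 8 of the gene's 11 transcripts, and the others are wholly or partly exonic in some transcripts and intronic in others. The windows of *SLC7A5*, *SLC38A2*, *SLC6A9* and *SLC43A1* do not hold these letters. A match is a description of the letters and says nothing of binding.

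All 10 transporter genes had a higher mean level in PTDSS1i than in DMSO in both sets of libraries, and none passed the test as lower. Every PTDSS1i library lay above every DMSO library for 9 of the 10 genes in KYSE30, as for 32.1% of all tested genes, and for all 10 in the libraries labelled U138MG, as for 35.5%. These counts are of normalized CPM, scaled by TMM. In CPM of the library total they were 8 and 9, against 25.5% and 27% of tested genes, since *SLC7A5* then overlapped in KYSE30 and *SLC6A9* in the libraries labelled U138MG. A gene is said to have passed when its adjusted p was under 0.05 in edgeR's quasi-likelihood test, which compares the fitted counts of the treatments, with Benjamini-Hochberg adjustment over all tested genes. In KYSE30 8 of the 10 passed as higher, where 30.1% of the 16389 tested genes did. Across the libraries labelled U138MG all 10 passed, where 33.9% of 17666 did. A stricter call also asks for a log2 fold change beyond 1, a change of more than 2-fold. It took 3 genes in KYSE30, *SLC6A9*, *SLC38A2* and *SLC7A11*, against 6.4% of all tested genes, and 3 in the libraries labelled U138MG, *SLC43A1*, *SLC7A11* and *SLC7A1*, against 8.19%. *SLC43A1* passed the filter on low counts in the latter set only through its PTDSS1i group, and with 10 counts required in every library it was not tested there, which left 2 called and 9 passed. In the other direction it took none of the 10, where 7.04% and 11.6% of all tested genes were called lower by more than 2-fold, at adjusted p-values under 0.05. *SLC7A11* was thus the gene called in both. The median log2 fold change of the 10 genes was 0.66 in KYSE30 and 0.87 in the libraries labelled U138MG, beside -0.03 over all tested genes in each. Scaling by library size alone moved the median of all genes to -0.13 and -0.17, and that of the 10 genes to 0.56 and 0.72. The 10 genes were chosen with earlier results of these data known, so the counts are descriptions. In bulk samples, more cells that carry a transcript and more of it in each cell cannot be told apart.

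**Figure D1:**
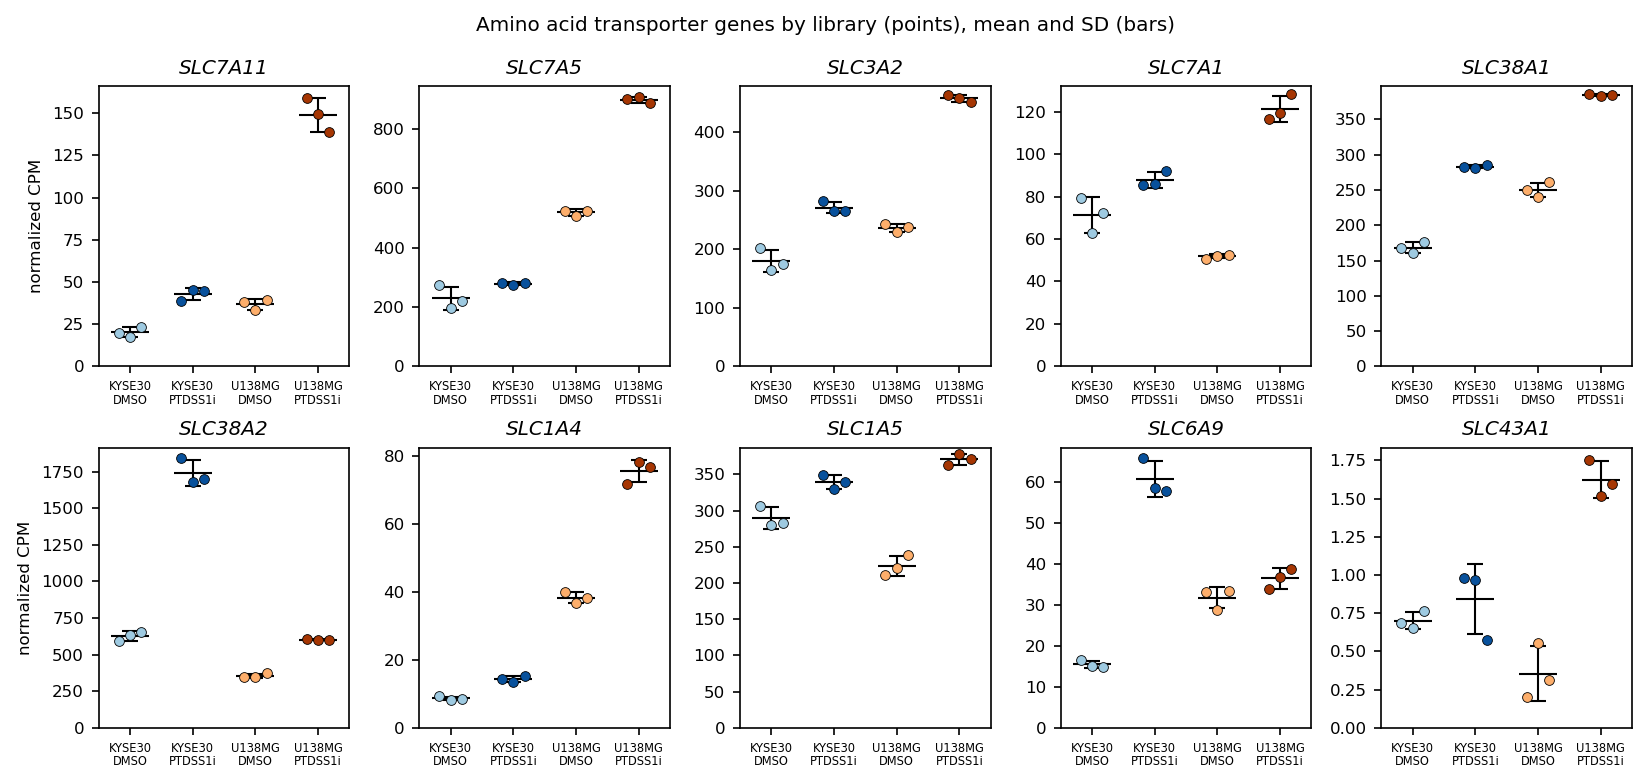
Level of each transporter gene in every library, as normalized CPM on a linear axis that starts at 0, with one panel per gene and the 4 groups on the x axis. Points are libraries and black bars are the group mean and SD of 3 libraries. For the libraries labelled U138MG the PTDSS1i points lie above the DMSO points in each of the 10 panels, and in KYSE30 they do so for each gene except SLC43A1.

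*SLC3A2* (ENSG00000168003, chr11:62856102-62888875 on the plus strand of GRCh38) encodes the heavy chain that both light chains need. In KYSE30 it had 202, 165 and 175 normalized CPM, which is CPM after TMM scaling, in the DMSO libraries and 282, 266 and 265 in the PTDSS1i libraries. The groups did not overlap, and DMSO replicate 1 was the highest of its group. The difference is a log2 fold change of 0.59 (SE, its standard error, 0.06, edgeR adjusted p = 7.35e-08), or 1.5-fold. In the set labelled U138MG the values were 243, 229 and 238 in DMSO and 463, 458 and 451 in PTDSS1i. The level thus came close to doubling (log2 fold change 0.95, SE 0.03, edgeR adjusted p = 6.09e-20).

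*SLC7A11* (ENSG00000151012, chr4:138164097-138242349, minus strand), the cystine importer, rose by the most among the 3 subunits of the heteromeric transporters. Its KYSE30 values were 20.1, 17.4 and 23.3 normalized CPM in DMSO against 38.8, 45.5 and 44.5 in PTDSS1i. Every treated library lay above every vehicle library, and the log2 fold change was 1.08 (SE 0.09, edgeR adjusted p = 1.66e-08), a 2.11-fold rise that 5.56% of tested genes exceeded. It was 0.98 without DMSO replicate 2 and 0.97 with scaling by library size alone, just under the 2-fold line in both. Within the libraries labelled U138MG the gene went from 38.0, 33.2 and 39.1 to 159, 149 and 139 normalized CPM. These groups lie far apart, by a log2 fold change of 2.02 (SE 0.06, edgeR adjusted p = 3.09e-12), a 4.06-fold rise that 2.54% of tested genes exceeded. Exons of the antisense gene *SLC7A11-AS1* cover 9.0% of its exon length and had 129 counts over the 6 libraries labelled U138MG. The library kit does not mark strand, so reads from the shared stretch cannot be assigned to either gene.

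*SLC7A5* (ENSG00000103257, chr16:87830023-87869488, minus strand), the leucine importer LAT1, was less clear in KYSE30. Its values there were 273, 196 and 219 normalized CPM in DMSO and 281, 275 and 282 in PTDSS1i. The groups did not overlap, but DMSO replicate 1 reached almost to the treated libraries. In CPM of the library total it lay above them, at 276 against 268, 268 and 271. The log2 fold change of 0.285 (SE 0.12) missed the threshold, with an edgeR adjusted p of 0.0684. Its 95% interval ran from 0.06 to 0.51. That interval is a normal approximation, narrower than the test implies, and is not adjusted for the number of genes. Without DMSO replicate 1 it was 0.44 (edgeR adjusted p = 1.59e-07), and over all alternatives its adjusted p ran from 1.59e-07 to 0.198. The libraries labelled U138MG held 525, 506 and 524 normalized CPM in DMSO and 901, 906 and 886 in PTDSS1i. This is a tight separation, a log2 fold change of 0.79 (SE 0.03, edgeR adjusted p = 1.81e-18). The near copy *SLC7A5P2* had 86 counts beside 96610 for *SLC7A5* in those 6 libraries, and an antisense gene covers 5.7% of the *SLC7A5* exons with at most 10 counts per set of libraries.

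**Figure D2:**
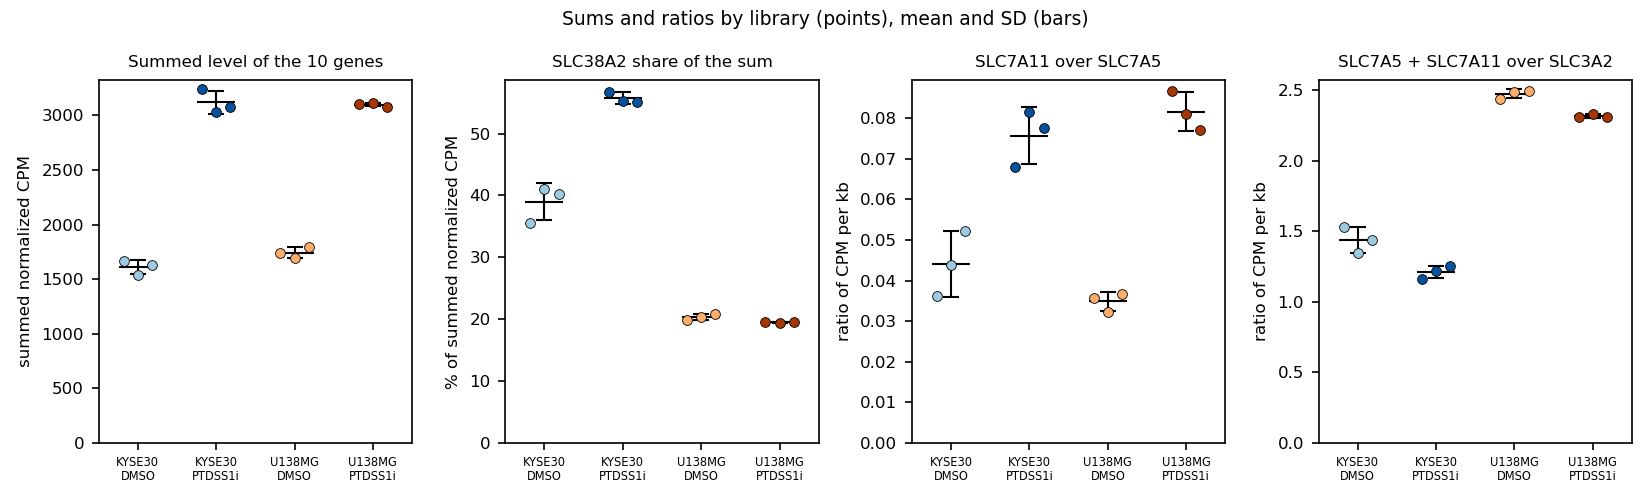
Sums and ratios over the transporter genes in every library, with points for libraries and black bars for the mean and SD of 3 libraries per group. From left to right the panels give the summed normalized CPM of the 10 genes, the percent of that sum on SLC38A2, the ratio of SLC7A11 to SLC7A5 and the ratio of both light chains to SLC3A2, the ratios being taken per kb of exon. The SLC38A2 share is higher in PTDSS1i in KYSE30 and slightly lower in the libraries labelled U138MG, and the ratio of SLC7A11 to SLC7A5 is higher in every PTDSS1i library than in the DMSO libraries of its set.

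Relative to exon length, *SLC7A5* was the more abundant of the light chains described here in every group. The ratio of *SLC7A11* to *SLC7A5*, in normalized CPM per kb, was 0.0441 ± 0.00807 in KYSE30 DMSO and 0.0757 ± 0.00701 in PTDSS1i (SD, n = 3). Across the libraries labelled U138MG it was 0.0348 ± 0.00231 and 0.0816 ± 0.00482 (SD, n = 3). The ratio was thus 1.72-fold and 2.34-fold higher in PTDSS1i, with no overlap between treatments. Both light chains together, relative to the heavy chain, went from 1.44 ± 0.0918 to 1.21 ± 0.0457 in KYSE30 and from 2.47 ± 0.0310 to 2.32 ± 0.0147 in the libraries labelled U138MG (SD, n = 3). The ratio of light chains to heavy chain was therefore somewhat lower in PTDSS1i. Each of the sums and ratios given here was compared in both sets of libraries, the sum also in CPM of the library total, 14 comparisons in all, by a two-sided exact permutation test over libraries. In each of them the exact permutation p was 0.1, raw and adjusted by Benjamini-Hochberg, which is the smallest that 3 against 3 libraries can give.

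*SLC7A1* (ENSG00000139514, chr13:29509410-29595688, minus strand) encodes CAT1, the carrier of arginine, lysine and ornithine. KYSE30 libraries had 79.5, 62.7 and 72.3 normalized CPM in DMSO and 85.4, 86.0 and 92.1 in PTDSS1i. The groups were close but did not overlap, and the rise was 1.23-fold, a log2 fold change of 0.30 (SE 0.07, edgeR adjusted p = 0.0012). For the libraries labelled U138MG the gene started lower, at 50.8, 52.2 and 52.7 normalized CPM, and ended higher, at 116, 119 and 128. That is a 2.34-fold rise, or a log2 fold change of 1.225 (SE 0.04, edgeR adjusted p = 9.8e-20).

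*SLC38A2* (ENSG00000134294, chr12:46358189-46372867, minus strand) encodes SNAT2, a sodium-coupled importer of glutamine, alanine and other small neutral amino acids that is known to be induced when amino acids are scarce. In KYSE30 the DMSO libraries had 593, 632 and 655 normalized CPM and the PTDSS1i libraries 1839, 1678 and 1697. The 2.77-fold rise had a log2 fold change of 1.47 (SE 0.06, edgeR adjusted p = 3.66e-15), and 2.96% of tested genes rose more. In the set labelled U138MG the values were 344, 345 and 373 in DMSO and 606, 601 and 603 in PTDSS1i. There the log2 fold change was 0.77 (SE 0.04, edgeR adjusted p = 2.11e-17), and 12% of tested genes rose more. The treated level in those libraries overlapped the vehicle level of KYSE30.

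*SLC38A1* (ENSG00000111371, chr12:46183063-46270017, minus strand), the related carrier SNAT1, lies near *SLC38A2* on the same chromosome. Its levels in KYSE30 were 168, 160 and 177 normalized CPM in DMSO and 283, 281 and 286 in PTDSS1i, a log2 fold change of 0.75 (SE 0.05, edgeR adjusted p = 3.47e-11). Within the libraries labelled U138MG they were 249, 241 and 261 and then 386, 383 and 384, a log2 fold change of 0.62 (SE 0.03, edgeR adjusted p = 2.17e-15). The treatments did not overlap in either. Of these 2 SNAT genes, *SLC38A2* rose more in KYSE30, where its ratio to *SLC38A1* per kb went from 5.65 ± 0.310 to 9.31 ± 0.488 (SD, n = 3). Across the libraries labelled U138MG the ratio moved from 2.15 ± 0.0465 to 2.38 ± 0.00185 (SD, n = 3).

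*SLC1A5* (ENSG00000105281, chr19:46774883-46788594, minus strand) encodes ASCT2, an exchanger of glutamine and other neutral amino acids. KYSE30 had 307, 280 and 282 normalized CPM in DMSO and 349, 330 and 340 in PTDSS1i, a 1.17-fold rise that was the smallest of those that passed in this line. Its log2 fold change was 0.23 (SE 0.05, edgeR adjusted p = 0.000673), and 31.2% of tested genes rose more. The libraries labelled U138MG had 211, 221 and 239 normalized CPM in DMSO and 363, 378 and 371 in PTDSS1i, a log2 fold change of 0.73 (SE 0.04, edgeR adjusted p = 8.02e-15). An antisense gene, *AC008622.2*, covers 23.4% of the *SLC1A5* exon length. It had 161 counts over the KYSE30 libraries and 4556 over those labelled U138MG, so the *SLC1A5* counts are uncertain by the reads of the shared stretch.

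*SLC1A4* (ENSG00000115902, chr2:64988477-65023865, plus strand) encodes ASCT1, which carries alanine, serine and cysteine. It was at 9.24, 8.17 and 8.59 normalized CPM in KYSE30 DMSO and at 14.4, 13.6 and 15.2 in PTDSS1i. The rise was 1.66-fold with no overlap, a log2 fold change of 0.73 (SE 0.10, edgeR adjusted p = 9.32e-07). For the libraries labelled U138MG it was at 39.9, 36.6 and 38.3 and then at 71.7, 78.1 and 76.6 normalized CPM. This 1.98-fold rise, a log2 fold change of 0.98 (SE 0.05, edgeR adjusted p = 3.6e-16), lies just under the 2-fold line, and was 1.01 without DMSO replicate 1 and 1.03 without PTDSS1i replicate 1. The ratio of *SLC1A5* to *SLC1A4* per kb went from 69.7 ± 1.54 to 49.2 ± 2.40 in KYSE30 and from 12.2 ± 1.06 to 10.2 ± 0.260 in the libraries labelled U138MG (SD, n = 3).

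*SLC6A9* (ENSG00000196517, chr1:43991500-44031467, minus strand) encodes the glycine transporter GlyT1. In KYSE30 it had 16.6, 15.1 and 14.9 normalized CPM in DMSO and 66.0, 58.6 and 58.0 in PTDSS1i. Of the 10 genes it rose the most in this line, 3.92-fold, and 1.29% of tested genes rose more. The log2 fold change was 1.97 (SE 0.07, edgeR adjusted p = 1.13e-15). In the set labelled U138MG the values were 33.2, 28.8 and 33.5 in DMSO and 33.9, 36.9 and 38.9 in PTDSS1i. The lowest treated library there lay next to the highest vehicle library, and the log2 fold change was 0.20 (SE 0.07, edgeR adjusted p = 0.00975). That call was lost without DMSO replicate 2 (0.13, edgeR adjusted p = 0.0997), without PTDSS1i replicate 3 (0.16, edgeR adjusted p = 0.0518), with library size alone (0.06, edgeR adjusted p = 0.472) and with upper-quartile scaling (0.06, edgeR adjusted p = 0.457), the adjusted p running from 0.000656 to 0.472 over all alternatives. *CCDC24* on the other strand covers 7.8% of the *SLC6A9* exon length. It had 4508 counts over the KYSE30 libraries and 3908 over those labelled U138MG, so the *SLC6A9* counts are uncertain by the reads of the shared stretch.

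*SLC43A1* (ENSG00000149150, chr11:57484534-57515786, minus strand), the leucine-type carrier LAT3, was close to the limit of detection. KYSE30 had 14, 13 and 18 counts in DMSO and 21, 19 and 14 in PTDSS1i. These groups overlapped, with a log2 fold change of 0.23 (SE 0.31, edgeR adjusted p = 0.526) and a 95% interval from -0.37 to 0.84, so no difference was detectable at this depth. The libraries labelled U138MG had 4, 13 and 7 counts in DMSO and 40, 33 and 40 in PTDSS1i, or 0.200, 0.555 and 0.311 against 1.76, 1.52 and 1.60 normalized CPM. The log2 fold change was 2.15 (SE 0.37, edgeR adjusted p = 1.05e-05). In those libraries the gene passed the filter on low counts only through its PTDSS1i group, so its place among the genes tested is not independent of the rise. Without DMSO replicate 2, which held the most counts of its group, the log2 fold change was 2.63.

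**Figure D3:**
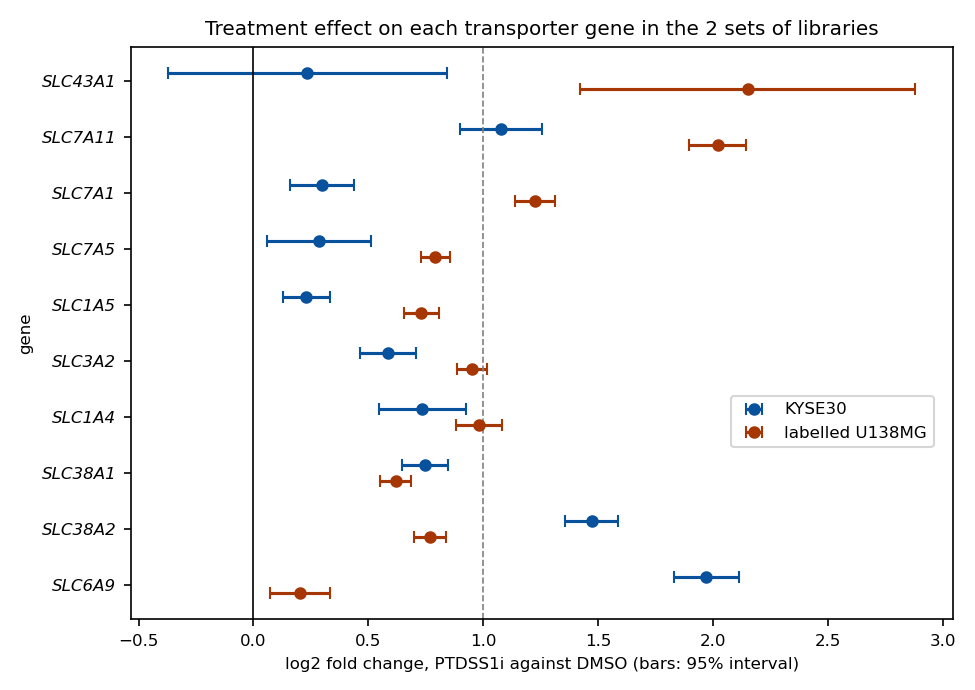
Log2 fold change of PTDSS1i against DMSO for each transporter gene, KYSE30 in blue and the libraries labelled U138MG in brown. Bars are the 95% interval by a normal approximation, and the dashed line is at a 2-fold rise. Genes are ordered by the difference between the lines, from SLC6A9 at the bottom, which rose by 1.97 in KYSE30 and 0.20 in the other set, to SLC43A1 at the top.

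The change with PTDSS1i was then compared between the lines. The interaction of line and treatment was tested over the 18405 genes that passed the filter in all 12 libraries together, and it gave an adjusted p under 0.05 for 9 of the 10 transporters, where 49.9% of all these genes did. With 10 counts required in every library *SLC43A1* was not tested and 8 differed. *SLC7A11*, *SLC7A5*, *SLC3A2*, *SLC7A1*, *SLC1A5* and *SLC43A1* had the larger log2 fold change in the libraries labelled U138MG, a direction that 25.5% of genes took. *SLC38A1*, *SLC38A2* and *SLC6A9* had the larger one in KYSE30, as did 24.4% of genes. *SLC6A9* had the difference with the smallest adjusted p, -1.81 on the log2 scale for U138MG minus KYSE30 (SE 0.11, edgeR adjusted p = 2.25e-15). For *SLC38A2* the difference was -0.74 (SE 0.07, edgeR adjusted p = 7.59e-11). In the other direction stood *SLC7A1* with 0.89 (SE 0.09, edgeR adjusted p = 1.23e-08) and *SLC7A11* with 0.905 (SE 0.14, edgeR adjusted p = 4.98e-05). *SLC1A4* missed the threshold, with a difference of 0.21 (SE 0.10, edgeR adjusted p = 0.1). The difference of *SLC38A1*, -0.17 (SE 0.06, edgeR adjusted p = 0.026), was lost without U138MG DMSO replicate 3 (edgeR adjusted p = 0.0616), and its adjusted p ran from 0.000217 to 0.0616 over all alternatives. Since all libraries share a single scaling in this test, its differences are not exactly those of the separate fits.

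The summed level of the 10 genes was higher in PTDSS1i in both sets of libraries. Summed normalized CPM was 1611 ± 67.3 in KYSE30 DMSO and 3117 ± 107 in PTDSS1i, and 1742 ± 52.7 and 3098 ± 16.1 in the libraries labelled U138MG (SD, n = 3). The sum was thus 1.93-fold and 1.78-fold higher, and 1.80-fold and 1.61-fold in CPM of the library total. Its make-up differed. *SLC38A2* took 35.6%, 41.1% and 40.3% of the summed CPM in the KYSE30 DMSO libraries and 56.8%, 55.3% and 55.1% in the PTDSS1i libraries. Within the libraries labelled U138MG its share was 20.3% ± 0.457 in DMSO and 19.5% ± 0.142 in PTDSS1i (SD, n = 3). These are shares of reads, which also depend on transcript length.

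**Figure D4:**
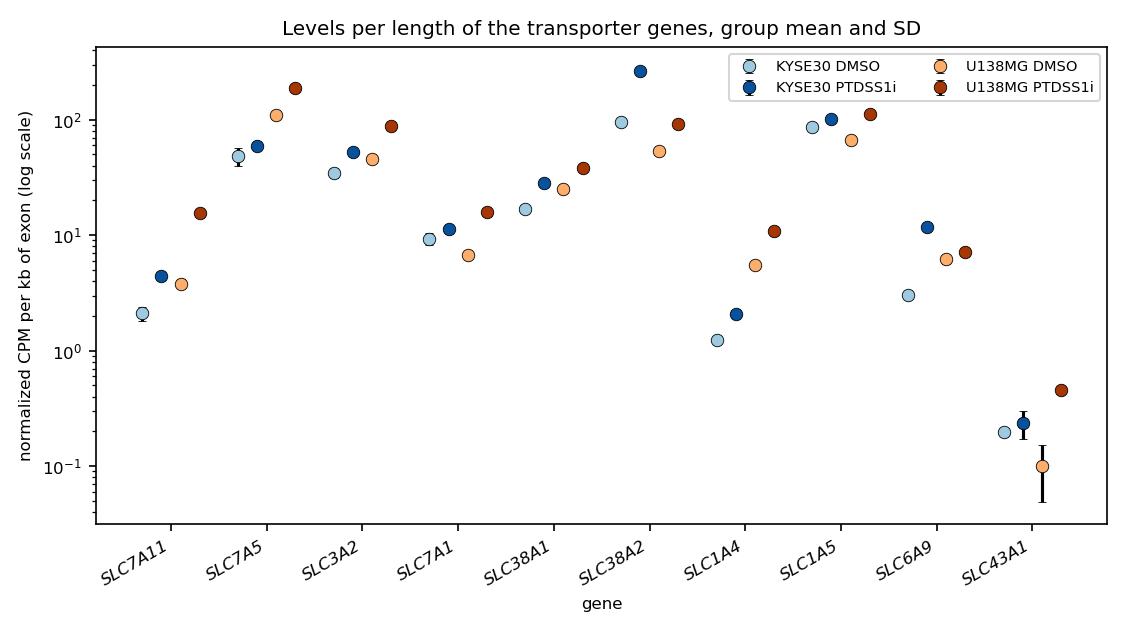
Level of each transporter gene in the 4 groups as normalized CPM per kb of exon, on a log axis, with points for group means and bars for the SD of 3 libraries. SLC38A2 is highest in KYSE30 and SLC7A5 in the libraries labelled U138MG, and SLC43A1 lies under 1 CPM per kb in all 4 groups.

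Per kb of exon, *SLC38A2* had the highest level in KYSE30, 94.9 CPM per kb in DMSO and 263 in PTDSS1i, followed by *SLC1A5* with 87.0 and 102. Across the libraries labelled U138MG *SLC7A5* was highest, with 109 CPM per kb in DMSO and 189 in PTDSS1i. *SLC43A1* was lowest in every group, from 0.101 to 0.460 CPM per kb. Ordered by level, each gene has 3 pairs of neighbouring groups, 30 in all, and the ranges of 27 pairs did not overlap. The overlapping pairs were KYSE30 PTDSS1i with U138MG DMSO for *SLC7A11*, KYSE30 DMSO with U138MG PTDSS1i for *SLC38A2*, and both treatments of KYSE30 for *SLC43A1*. In CPM of the library total 6 pairs overlapped, of which 2 were among these. The *SLC38A2* pair was then apart, and the added pairs were KYSE30 PTDSS1i with U138MG DMSO for *SLC3A2* and *SLC38A1*, both treatments of KYSE30 for *SLC7A5* and both of the libraries labelled U138MG for *SLC6A9*. The tables of the lines list different sets of genes, so they may rest on different annotations, and they were scaled separately. Levels set side by side across lines carry these differences too.

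Other amino acid transporters of the plasma membrane and lysosome moved both ways. Of 44 listed by hand, 21 were tested in KYSE30, and 12 passed as higher and 5 as lower, with a median log2 fold change of 0.21. With scaling by library size alone 8 passed as higher and 7 as lower. *SLC1A6*, a glutamate transporter, went from 64.7 ± 8.11 to 292 ± 20.8 normalized CPM (SD, n = 3), up by 2.18 on the log2 scale. *SLC6A6*, the taurine transporter, had 0.75 and *SLC1A1*, a transporter of glutamate and cysteine, had 0.89. *SLC1A3*, another glutamate transporter, fell with a log2 fold change of -0.47, as did *SLC36A1* and *SLC43A2*, with -0.20 and -0.31. For the libraries labelled U138MG 26 were tested, 15 passed as higher and 5 as lower, or 8 as lower with library size alone, and the median was 0.67. There *SLC6A6* rose from 119 ± 2.09 to 291 ± 4.95 normalized CPM (SD, n = 3), up by 1.29 on the log2 scale. *SLC38A6* and *SLC6A15*, a carrier of branched-chain amino acids and proline, had 0.95 and 0.93. *SLC7A8*, which encodes LAT2, fell with -0.61, *SLC1A3* with -0.44 and *SLC38A10* with -0.30. *SLC1A6* had almost no counts in this set. The shares of all tested genes that passed as higher were 30.1% in KYSE30 and 33.9% in the libraries labelled U138MG. Those that passed as lower were 32% and 33.6%. Mitochondrial carriers of amino acids and glutathione leaned the other way in KYSE30, where 3 of 12 tested passed as higher and 7 as lower, and split as 5 and 4 of 13 in the libraries labelled U138MG, or as 3 and 5 with scaling by library size alone. Among them *SFXN2*, a sideroflexin, had log2 fold changes of -1.22 and -0.85. *SFXN3*, also a sideroflexin, rose by 0.93 in KYSE30 and by 0.235 in the libraries labelled U138MG. *SLC25A44* rose by 0.20 and 0.315 in the respective sets. The ornithine carrier *SLC25A15* fell by 1.11 on the log2 scale in KYSE30, and the aspartate-glutamate carrier *SLC25A12* by 0.84 in the libraries labelled U138MG.

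**Figure D5:**
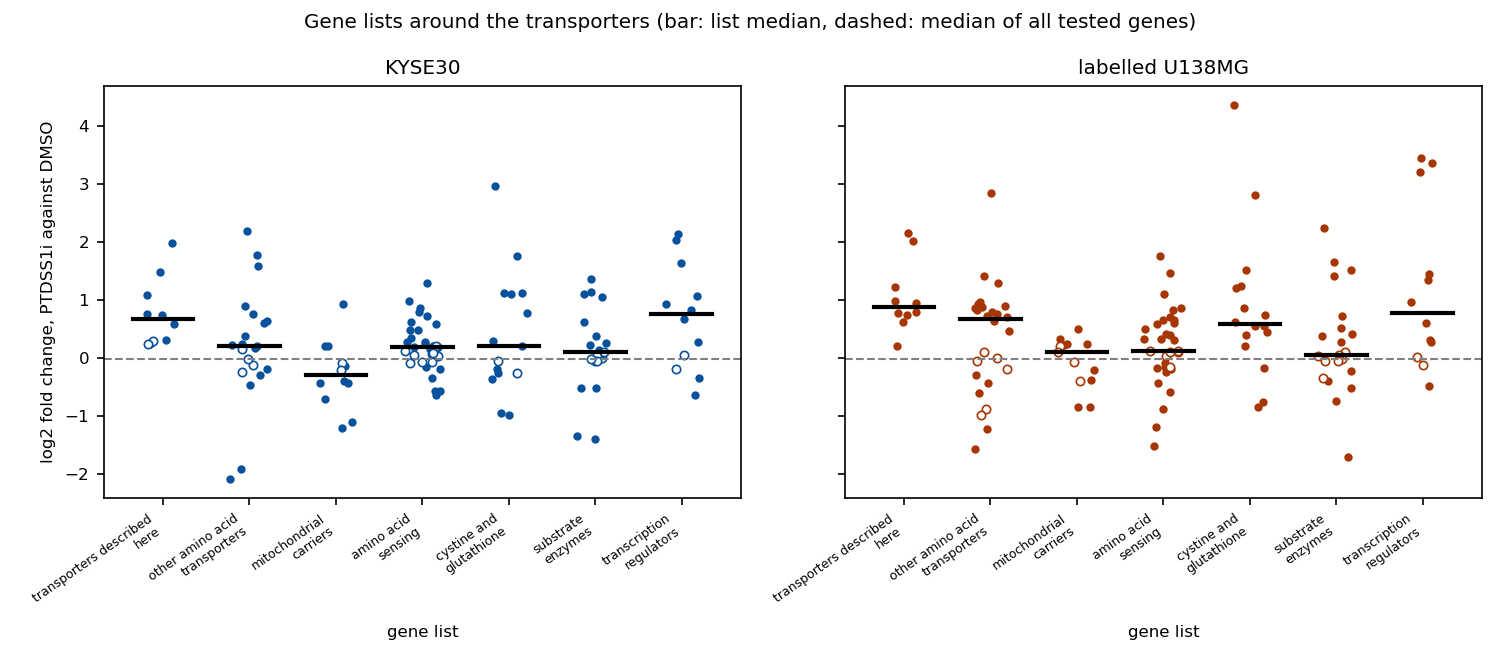
Log2 fold change of PTDSS1i against DMSO for the tested genes of 7 lists, KYSE30 on the left and the libraries labelled U138MG on the right. Filled points passed at an adjusted p under 0.05, open points did not, black bars are list medians and the dashed line is the median of all tested genes. The transporters described here have medians of 0.66 and 0.87, and each of the other lists holds genes on both sides of 0.

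Genes of cystine use and glutathione, the pathway fed by *SLC7A11*, passed as higher in 8 and lower in 5 of 15 tested in KYSE30, and in 13 and 3 of 16 in the libraries labelled U138MG, with medians of 0.21 and 0.58. Of all tested genes, 30.1% passed as higher and 32% as lower in KYSE30, and 33.9% and 33.6% in the other set. These shares stand beside the counts of the lists that follow too. *CHAC1*, which degrades glutathione, rose in both, by 2.96 and 4.36 on the log2 scale. *CBS*, an enzyme of the transsulfuration pathway, rose by 1.76 in KYSE30 and by 0.61 in the libraries labelled U138MG. In the set labelled U138MG *GCLM*, the modifier subunit of the enzyme that starts glutathione synthesis, went from 77.6 ± 4.55 to 540 ± 22.9 normalized CPM (SD, n = 3), up by 2.80 on the log2 scale. *TXNRD1*, thioredoxin reductase, rose there by 1.52. In KYSE30 *GCLM* and *TXNRD1* rose by 0.28 and 1.09. *GCLC*, the catalytic partner of *GCLM*, went in opposite directions, with log2 fold changes of 1.12 in KYSE30 and -0.77 in the libraries labelled U138MG. Lower in KYSE30 were *GGCT* with -0.98, *ABCC1*, an exporter of glutathione conjugates, with -0.37 and *TXN*, thioredoxin, with -0.26. Lower in the other set were *GGT1* with -0.85, which splits extracellular glutathione, and *GGCT* with -0.17.

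Genes of amino acid sensing upstream of mTORC1 and GCN2 numbered 16 higher and 6 lower of 32 tested in KYSE30, and 16 and 11 of 33 in the libraries labelled U138MG, with medians of 0.19 and 0.12. The 11 lower are close to the 33.6% of all tested genes that passed as lower in that set. *SESN2*, which encodes the leucine sensor Sestrin2, rose from 15.1 ± 0.990 to 27.4 ± 0.683 normalized CPM in KYSE30 and from 12.4 ± 1.02 to 41.6 ± 1.42 in the libraries labelled U138MG (SD, n = 3), log2 fold changes of 0.86 and 1.75. *DDIT4*, a stress-induced inhibitor of mTORC1, rose by 1.28 in KYSE30 and the Rag GTPase gene *RRAGC* by 0.97. In the other set they rose by 0.70 and 0.60. *SEC13*, part of the GATOR2 complex and of the COPII coat, rose by 1.46 in the libraries labelled U138MG, and *RRAGD* by 1.10. In KYSE30 *SEC13* rose by 0.47 and *RRAGD* was not tested. Among the genes that fell were *SESN1*, *SEH1L* and *EIF2AK4*, the gene of GCN2, with -0.57, -0.65 and -0.57 in KYSE30. In the other set *SESN1* and *EIF2AK4* also fell, with -0.585 and -0.17, and *SEH1L* rose by 0.41. *SESN3*, *CASTOR2* and *RRAGB* had -1.52, -1.20 and -0.88 in the libraries labelled U138MG.

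Enzymes that use glutamine, branched-chain amino acids and arginine were split, with 9 higher and 4 lower of 20 tested in KYSE30 and 9 and 5 of 21 in the libraries labelled U138MG. With scaling by library size alone the counts were 7 and 7 in KYSE30 and 9 and 11 in the other set. *SAT1*, which acetylates polyamines, rose in both sets by 1.14 and 1.52. *ASS1*, which makes argininosuccinate, rose in KYSE30 by 1.11. Within the libraries labelled U138MG the arginase gene *ARG2* rose by 2.24 and *GPT2*, an alanine aminotransferase, by 1.66. In KYSE30 they rose by 1.36 and 0.61. *ODC1*, the first enzyme of polyamine synthesis, and the branched-chain aminotransferase genes *BCAT1* and *BCAT2* fell in KYSE30, with -1.34, -1.41 and -0.53. *GLUL*, glutamine synthetase, and the dehydrogenase subunit genes *BCKDHB* and *BCKDHA* fell in the libraries labelled U138MG, with -0.75, -0.52 and -0.39.

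Of 12 genes of transcription regulators known to act on these transporters or within the same stress response, 8 passed as higher and 2 as lower in KYSE30, and 9 and 1 in the libraries labelled U138MG. *ATF4* had log2 fold changes of 1.06 and 0.96 in the respective sets. *ATF3*, *DDIT3* and *TRIB3*, genes known to lie downstream of ATF4, had 2.13, 2.03 and 1.63 in KYSE30 and 3.20, 3.37 and 3.45 in the libraries labelled U138MG. The C/EBP genes *CEBPB* and *CEBPG* had 0.92 and 0.67, and 1.34 and 1.45. *BACH1*, a repressor of antioxidant genes, rose by 0.83 and 0.59. *NFE2L2*, which encodes the antioxidant regulator NRF2, rose by 0.28 in KYSE30 and had 0.02 in the libraries labelled U138MG (edgeR adjusted p = 0.623). *KEAP1*, its inhibitor, had 0.05 in KYSE30 (edgeR adjusted p = 0.428) and fell by 0.49 in the libraries labelled U138MG. *ATF5* had -0.19 in KYSE30 (edgeR adjusted p = 0.0534) and rose by 0.27 in the other set. *MYC* fell by 0.34 in KYSE30 and rose by 0.31 in the libraries labelled U138MG.

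For each transporter the gene with the most similar pattern was sought among 10272 genes with at least 5 CPM in each line. Likeness was the root mean square difference over the 12 libraries of log2 CPM relative to the DMSO mean of the line, so 0 would mean the same pattern. *SLC7A11* was nearest to *TMEM154*, *ANXA3* and *CYP1B1*, at 0.140, 0.145 and 0.146. *SLC7A5* was nearest to *MFSD12*, *TRIM16L* and *CLTB*, at 0.0565, 0.0613 and 0.0703. The nearest genes of the others were *SH3KBP1* for *SLC3A2* (0.0559), *RMC1* for *SLC7A1* (0.0668), *FGD6* for *SLC38A1* (0.0596), *FAM114A1* for *SLC38A2* (0.0709), *LGMN* for *SLC1A4* (0.0519), *TBL2* for *SLC1A5* (0.0440) and *FBXO32* for *SLC6A9* (0.0901). None of the transporters described here was the nearest gene of another. *MFSD12*, the nearest gene of *SLC7A5*, belongs to the list of other amino acid transporters of the plasma membrane and lysosome. *MFSD12* had log2 fold changes of 0.37 in KYSE30 and 0.82 in the libraries labelled U138MG. *SLC43A1*, under 5 CPM, was left out. All libraries of a line share its batch, so the likeness is a description.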

How the data were processed

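The authors deposited raw counts of reads per gene, not normalized, in a table for each line. The submitters' processing notes name Trimmomatic, STAR, featureCounts and hg38. Which annotation was used, and whether counting used strand, is not given in the sources used here, and no samples were pooled. The tables list 30984 and 78691 genes and share 30358 identifiers. Part of the gap in size is that the KYSE30 table lists no gene without a count, whereas the other lists 43615 such genes. Sample labels gave the groups and replicate numbers. The genes and lists described here were chosen with earlier results of these data known.

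The tests were run with edgeR 4.0.16 and DESeq2 1.42.0 under R 4.3.3, and figures drawn with Python 3.11.15 and matplotlib 3.10.9. Genes were kept by filterByExpr (minimum count 10, minimum total 15) and scaled by TMM. Treatments were compared within each line by the robust quasi-likelihood test of edgeR with Benjamini-Hochberg adjustment, and the lines by the interaction over genes in both tables. Exon lengths, loci and overlaps came from GENCODE v29 (GRCh38), which may not be the authors' annotation. All 10 transporters were named, and from each surrounding list up to 3 genes per line and direction with the largest change, an adjusted p under 0.05, at least 5 CPM and no overlap between treatments, and the regulators; 1 enzyme and 1 regulator named by this rule are not reported here. Scripts were tested on simulated data. The interaction missed a first criterion set on all changed genes, mostly at low counts or small folds, and the criterion was then restated for well-counted genes changed at least 2-fold. Library totals of 18800932 to 26514658 counts limit precision by counting error only. Alternatives were other scalings, DESeq2, other filters and thresholds, a replicate block, each library left out and both lines fitted together. CPM of the library total was added for the levels and overlaps after the data were seen. Protein sequences were not used here.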

Additional observations from a re-analysis of the deposited data

Results flagged for a closer look

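The change with PTDSS1i differed between the lines for 9 transporter genes, by the interaction of line and treatment in edgeR's quasi-likelihood test. Differences are log2 fold changes in the libraries labelled U138MG minus those in KYSE30. They were 0.905 for *SLC7A11*, 0.469 for *SLC7A5*, 0.327 for *SLC3A2*, 0.888 for *SLC7A1*, 0.463 for *SLC1A5* and 1.869 for *SLC43A1*, and -0.168 for *SLC38A1*, -0.743 for *SLC38A2* and -1.808 for *SLC6A9*. The adjusted p-values ran from 2.25e-15 for *SLC6A9* to 0.026 for *SLC38A1*. In KYSE30 *SLC43A1* and *SLC7A5* did not pass the test of treatment. *SLC43A1* had 4 to 13 counts in the U138MG DMSO libraries, and with 10 counts required in every library it was not tested and 8 genes differed. Line, batch and possibly medium cannot be told apart in these values.

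A further 13 named genes of the surrounding lists passed the test of treatment in opposite directions in the lines. Their differences, in the same sense, also passed the interaction test. Choosing genes by opposite passes all but fixes that outcome, so the differences are descriptions. Such genes are common here. Of 13990 genes tested in both lines 14.9% passed in opposite directions, beside 18 of 109 genes of these lists, or 16.5%. Among the mitochondrial carriers these were 0.883 for *SLC25A22*, -0.457 for *SLC25A38* and 0.615 for *SLC25A39*. For the sensing genes *CASTOR2* and *SEH1L* they were -1.507 and 1.017. The glutathione and thioredoxin genes *GCLC*, *TXN* and *ABCC1* had -1.928, 0.956 and 0.533. Among enzymes, *GLUL*, *BCAT1*, *ODC1* and *ASS1* had -1.007, 2.784, 1.573 and -1.381, with *BCAT1* at -1.41 in KYSE30 and 1.42 in the libraries labelled U138MG. *MYC* had 0.618. Under 3 other scalings, tried on these genes after the data were seen, 9 of the 13 passed in opposite directions each time. The exceptions were *SLC25A22* and *ABCC1*, whose rise in the libraries labelled U138MG did not pass with library size alone or upper-quartile scaling, and *SLC25A38* and *GLUL*, whose rise in KYSE30 did not pass with library size alone. Their causes were not tested.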

How the results depend on the processing

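Under the alternatives run, no log2 fold change of the 10 transporters within a line, and no difference between the lines, reversed its direction. With the fold threshold dropped, 8 transporters were called in KYSE30 and 10 in the libraries labelled U138MG in place of 3 each, and with a difference beyond 1 required, 2 in place of 9 differed between the lines. In CPM of the library total the summed level was 1.80-fold and 1.61-fold higher, and the order of groups was kept for all 10 genes. Scaling by library size alone left *SLC7A11* under the 2-fold line in KYSE30, so 2 were called, and gave 1 mitochondrial carrier higher and 7 enzymes lower there. In the libraries labelled U138MG, library size alone and upper-quartile scaling each gave 8 other transporters lower, 3 mitochondrial carriers higher, 11 enzymes lower and 3 regulators lower. Requiring 10 counts in every library left *SLC43A1* untested in the libraries labelled U138MG and gave 1273 genes called lower there in place of 2048. *SLC7A5* in KYSE30 passed with no filter (0.27, edgeR adjusted p = 9.07e-06) and with both lines fitted together (0.33, edgeR adjusted p = 0.0141), but not in DESeq2 (0.30, adjusted p = 0.0795). The difference of *SLC38A1* was lost with no filter (edgeR adjusted p = 0.0605).

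With each library left out, between 2 and 3 transporters were called in KYSE30 and between 3 and 4 in the libraries labelled U138MG, between 8 and 9 passed as higher in KYSE30 and between 9 and 10 in the other set, and between 8 and 9 differed between the lines. Regulators lower in the libraries labelled U138MG ranged from 1 to 2, being 2 without DMSO replicate 1. The summed level was higher by between 1.89-fold and 1.97-fold in KYSE30 and between 1.75-fold and 1.81-fold in the other set, and the ratio of *SLC7A11* to *SLC7A5* between 1.57-fold and 1.89-fold and between 2.26-fold and 2.41-fold. The cause of these changes was not tested.

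Same-numbered DMSO and PTDSS1i libraries shared only a number, with correlations of their deviations from 0.02 to 0.075 in KYSE30 and from -0.003 to 0.048 in the libraries labelled U138MG. In KYSE30, but not in the other set, each library correlated best with its own number, which is a hint from the data and not from the design. With a replicate block, *SLC7A5* in KYSE30 passed (0.30, edgeR adjusted p = 0.013), so 9 passed as higher there, and the block changed no other call of the 10 genes. At these depths *SLC43A1*, with 4 to 40 counts in a library, is the gene that counting error limits most.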
